A study of Mus musculus with 6 samples.

Results

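Immediate-early genes and heat shock genes were followed in tuft cells of the mouse thymus, a rare epithelial cell type with a chemosensory program. The 30 genes, 23 immediate-early and 7 heat shock, were taken by symbol from the 55471 genes of the deposited expression table, and all 30 were found there. Tuft cells were sorted on the surface marker L1CAM, and RNA was sequenced from 3 samples of Foxn1-Cre-negative and 3 of Foxn1-Cre-positive mice. Every mouse carried floxed Ikzf1 (Ikzf1fl/fl), the gene for the transcription factor Ikaros, and Foxn1-Cre is a recombinase driven from the Foxn1 gene of thymic epithelium, so that deletion would not be limited to tuft cells. The labels give no age and no further treatment. The table names its libraries Het1, Het2, Het3, Ko1, Ko2 and Ko3, without tying them to single samples. Ko was read as the Cre-positive genotype, given as KO, and Het by elimination as the Cre-negative one, given as WT.

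Values are normalized counts, each a whole number of reads multiplied by a factor of its library, so reads could be recovered. Library totals ran from 12238428 to 31435787 reads. All 15 tuft cell defining markers were read in all 6 libraries, among them the transcription factor gene Pou2f3 at 2041 to 3090 normalized counts and the ion channel gene Trpm5 at 11647 to 19979. Ikzf1 RNA averaged 254 ± 59.7 in Het libraries against 1584 ± 128 in Ko (SD, n = 3 each), so it was higher in the libraries labelled as knockout. A count per gene does not show whether the floxed part was deleted, so the labels could not be checked this way. Directions below are between libraries as labelled. Genes with a mean of at least 10 were tested with limma on log2(normalized count + 1), with adjusted p-values over all 19416 genes tested. Nothing in the labels says that samples came from separate animals, so the spread that a p-value is set against here may be technical in part. In bulk RNA, fewer cells of a type and less RNA per cell cannot be told apart.

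Immediate-early genes are switched on within minutes of a stimulus, without new protein synthesis, when kinases act on transcription factors such as SRF and CREB that already sit at their promoters. Many of their products are transcription factors, and others shut the response down again. Heat shock genes encode chaperones that hold and refold proteins, and the inducible ones are driven by HSF1 when unfolded protein accumulates. Both programs are also known to be switched on in solid tissue while it is digested and sorted.

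Most of the 30 genes were read at high levels in both groups, and no tested member passed the test. Of the 22 immediate-early genes tested, 0 were called in either direction by limma, beside 0.814% of all genes tested. Of these 22, 17 had a positive and 5 a negative log2 fold change of Ko over Het, with a median of 0.25. Over all genes tested the median was -0.05 and 47.2% were positive. Most of the 15 tuft cell defining markers lay to the same side, with 13 positive and 2 negative fold changes and a median of 0.33. The 1 called by limma, Ptgs1, encoding cyclooxygenase 1, rose (log2 fold change 1.31, adjusted p = 0.0264). Its adjusted p was 0.0728 by edgeR, 0.0501 by voom and up to 0.148 in limma with a library left out. Gng13 went the other way without overlap (log2 fold change -0.70). Its adjusted p was 0.0504 by limma, 0.104 by edgeR and 0.0465 by voom. DESeq2 called both genes (adjusted p = 1.6e-06 for Ptgs1 and 0.00183 for Gng13). The part of these markers in the immediate-early values was not tested. Of the 7 heat shock genes tested, 0 were called, with 2 positive and 5 negative fold changes and a median of -0.18. At an unadjusted limma p under 0.05 there were 5 immediate-early genes on the higher and 1 on the lower side, and 1 heat shock gene on the lower side, beside 5.62% of all genes on the higher and 7.99% on the lower side. EdgeR and voom called 0 members. DESeq2 on the recovered reads called Egr3 and Nr4a2 as higher and Hsph1 as lower, with 6.34% of all genes called. Single libraries moved both medians: the immediate-early one was 0.09 without Het2, 0.16 without Het3 and 0.42 without Het1, and the heat shock one was -0.36 without Het2, -0.33 without Ko1, -0.30 without Ko2, -0.07 without Het3 and 0.03 without Ko3. A gene that missed the test has not been shown to be alike in both groups.

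**Figure D1:**
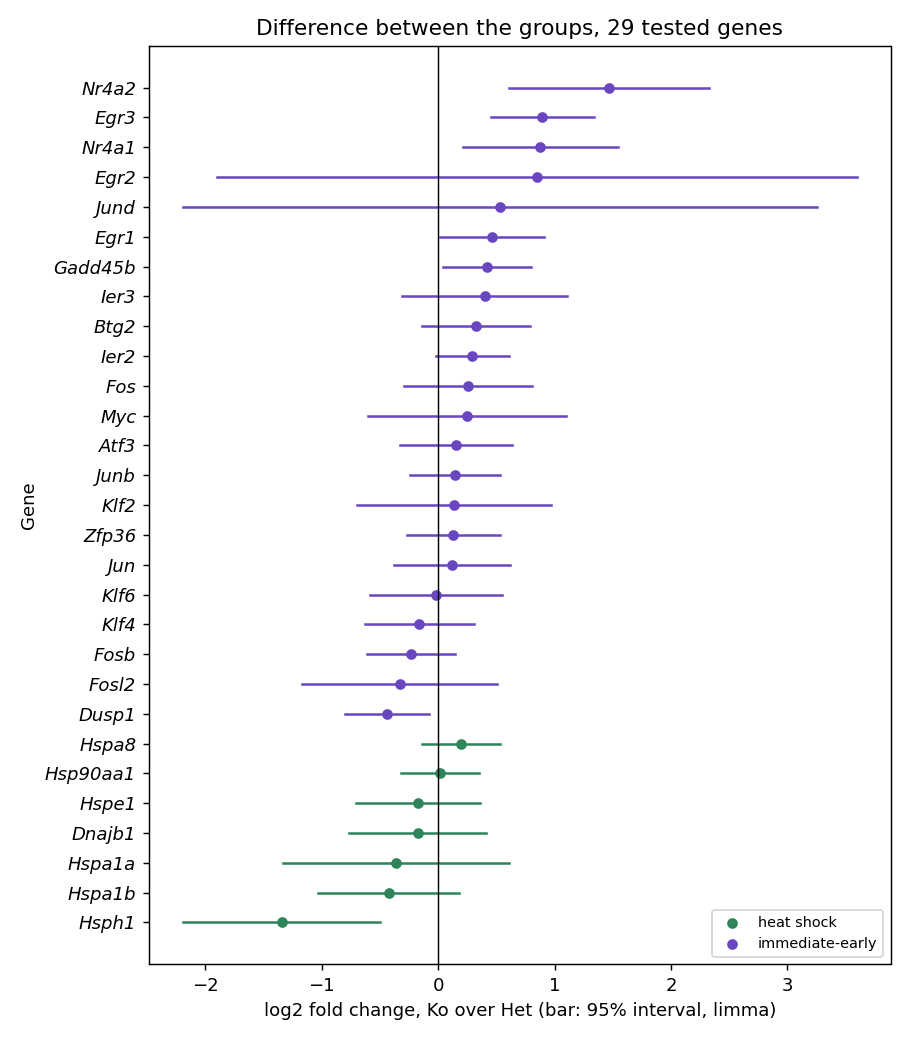
Log2 fold change of Ko over Het (x axis) for the 29 tested members (y axis), with points for the limma estimate and bars for its unadjusted 95% interval; heat shock genes are green and immediate-early genes purple. Nr4a2, Egr3 and Nr4a1 lie farthest to the right, at 1.47, 0.90 and 0.88, and Hsph1 farthest to the left, at -1.34.

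The products of the Fos and Jun families pair into AP-1, the transcription factor most closely tied to the immediate-early response. Fos stood at 26015, 14214 and 24298 normalized counts (Het1, Het2, Het3), against 34292, 21282 and 21059 (Ko1, Ko2, Ko3). All values of single libraries below follow this order. The groups overlapped, with Het2 lowest and Ko1 highest. The log2 fold change was 0.26 ± 0.25 (SE), with a 95% interval from -0.29 to 0.81 (limma adjusted p = 0.713). Fosb, a close relative of Fos, was at 11446, 7972 and 10305 in Het and 9198, 8762 and 7125 in Ko libraries. Its fold change had the opposite sign (-0.24, interval -0.61 to 0.14; limma adjusted p = 0.596). Fosl2, encoding Fra-2, ranged from 710 to 2051 in Het and from 779 to 1085 in Ko libraries, with Het1 standing above the other five.

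Jun, the main partner of Fos, was at 8059, 4243 and 4829 in Het libraries and 6057, 5624 and 6204 in Ko libraries. All 3 Ko values lay between Het1 and Het3. Junb was at 13467, 8428 and 11087 in Het and 13156, 10957 and 11806 in Ko libraries, again inside the Het range. Exons of Junb overlap Prdx2 on the opposite strand, and Prdx2 had a mean of 10539 normalized counts. Whether counting used strand is not given, so the share of Prdx2 reads in the Junb values is not known. The log2 fold changes were 0.12 for Jun (interval -0.38 to 0.62) and 0.15 for Junb (-0.24 to 0.53). Atf3, a stress-induced factor that pairs with Jun, ranged from 7522 to 13101 in Het and from 8794 to 12862 in Ko libraries. Jund, which in most cells is a constantly expressed Jun family gene, was the exception in level, at 7.83, 7.10 and 14.4 in Het and 11.3, 16.6 and 14.3 in Ko libraries, 71 reads over all 6. The gene overlaps Gm11175 on the opposite strand in the GENCODE vM21 annotation, and Gm11175 had 0 reads in every library. Whether the low count of Jund comes from little RNA or from how reads were assigned was not tested.

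Log2 fold changes of the 5 EGR and NR4A genes ran from 0.46 to 1.47, and those of the 7 AP-1 genes, Atf3 included, from -0.33 to 0.53; the difference between the families was not tested. Egr3, a zinc finger factor induced through calcium and MAP kinase signals, was at 3142, 2000.0 and 2719.8 in the Het libraries, against 4572, 4606 and 5235 for Ko. Every Ko value lay above every Het value. The means were 2621 ± 577 and 4804 ± 374 (SD, n = 3 each), with a log2 fold change of 0.90 ± 0.20 (SE; interval 0.46 to 1.34) that missed the threshold (limma adjusted p = 0.0790). DESeq2 called it (adjusted p = 0.00273) and edgeR did not (0.134), and the authors' deposited table gives an adjusted p of 0.00753, with 8.19% of its genes under 0.05. Leaving out single libraries moved its log2 fold change only between 0.71 and 1.04.

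Egr1, the best known member of the family, was at 15775, 8802 and 10403 in Het and 17517, 14894 and 14432 in Ko libraries. Here Het1 lay within the Ko range, and the fold change of 0.46 ± 0.20 (SE) did not pass (limma adjusted p = 0.346). Egr2 was nearly unread, at 8.52 to 13.98 in Het and 8.29 to 57.3 in Ko libraries. Its interval, -1.90 to 3.596, reflects 114 reads in all.

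NR4A genes encode orphan nuclear receptors that need no ligand and act as soon as they are made. Nr4a2 was at 277, 180 and 297 in Het libraries and 503, 678 and 932 in Ko libraries. The groups did not overlap and the means were 252 ± 62.6 and 704 ± 216 (SD, n = 3 each), a 2.80-fold difference. It amounted to 1.47 ± 0.39 on the log2 scale (SE; interval 0.61 to 2.33; limma adjusted p = 0.125), and DESeq2 called it (adjusted p = 0.0121). EdgeR did not call it (adjusted p = 0.163), and the authors' deposited table gives an adjusted p of 0.00227. Nr4a1 was at 3078, 1367 and 1379 in Het and 3589.7, 3139 and 3197 in Ko libraries. The Ko libraries lay close together and only just above Het1, while Het2 and Het3 were far lower. The log2 difference between the groups, 0.88 ± 0.30 (SE), missed the threshold (limma adjusted p = 0.236). Without Het1 it was 1.27 and passed limma (adjusted p = 0.0350). With any other library left out it did not pass (limma adjusted p up to 0.498, without Het3).

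Among the tested immediate-early genes, groups did not overlap for Egr3, Nr4a1, Nr4a2 and Gadd45b, each with Ko higher, which is 4 of 22 beside 8.57% of all genes tested. With Ko lower there were 0 of 22, beside 9.86%. Dusp2 is not counted here because its mean was below the minimum level for the test, and its groups did not overlap, with Ko lower.

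Promoter sequence is shown for genes whose control elements are well known, beginning with the NR4A pair. RefSeq promoter windows (assembly GRCm38.p6, whereas the processing notes list GRCm39) were matched for 24 of the 30 genes, 19 immediate-early and 5 heat shock, as 300 bases from 250 before the gene start. The cyclic AMP response element (CRE), bound by CREB, is TGACGTCA, and its half-site is TGACG. The motif search covered both strands, so that CGTCA on the printed strand is also a half-site. No window was matched for Egr1, Egr3, Ier2, Myc, Hspa8 and Hsp90aa1. For every motif, a gene with several windows was counted if any of them held it, whereas the share is over single windows. The 2 are therefore not strictly alike. A half-site was found for 12 of 19 immediate-early and 2 of 5 heat shock genes and in 20.8% of all 32851 windows. Nr4a1 and Nr4a2 each had 4 that did not overlap, a count reached in 0.113% of windows; the count of 4 was chosen after these windows had been seen. The full CRE was found for Dusp1 and Btg2 and in 1.79% of windows. Capitals mark half-sites in the 250 bases before the start of Nr4a1, chr15:101266596-101266845 (plus strand), and Nr4a2, chr2:57124004-57124253 (minus strand), and half-sites and the TATA box TATAAA in the 150 bases before Fos, chr12:85473740-85473889 (plus strand).
Nr4a1: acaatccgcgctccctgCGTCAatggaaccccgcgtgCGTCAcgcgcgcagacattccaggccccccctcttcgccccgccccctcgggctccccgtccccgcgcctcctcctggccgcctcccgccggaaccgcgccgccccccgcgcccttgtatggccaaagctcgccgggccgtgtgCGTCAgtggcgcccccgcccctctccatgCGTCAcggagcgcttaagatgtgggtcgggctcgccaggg
Nr4a2: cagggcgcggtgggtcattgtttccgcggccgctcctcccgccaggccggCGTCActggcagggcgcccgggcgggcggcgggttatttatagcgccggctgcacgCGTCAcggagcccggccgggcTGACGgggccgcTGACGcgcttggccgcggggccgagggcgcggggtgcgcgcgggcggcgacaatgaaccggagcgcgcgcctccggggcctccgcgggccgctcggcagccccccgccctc
Fos: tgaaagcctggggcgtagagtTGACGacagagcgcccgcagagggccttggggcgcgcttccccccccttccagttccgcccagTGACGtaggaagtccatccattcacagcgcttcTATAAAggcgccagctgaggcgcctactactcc

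The CArG box, the site of the serum response factor SRF, was found for 2 of 19 immediate-early genes, Egr2 and Zfp36, and in 1.63% of windows. The EGR site GCGNGGGCG was found for 10 of 19 and in 5.55% of windows. The genes were Fosb, Fosl2, Dusp2, Zfp36, Nr4a1, Nr4a2, Btg2, Klf2, Klf4 and Gadd45b. Fold changes of Ko over Het had both signs among them, and a tie to the site was not tested. The AP-1 site TGANTCA was found for 0 of 19, beside 7.81% of windows. Capitals mark the CArG box in the 100 bases before Zfp36, chr7:28379229-28379328 (minus strand), and the EGR site in the 150 bases before Dusp2, chr2:127336009-127336158 (plus strand). A match is a match of letters, and sites outside these windows were not searched.
Zfp36: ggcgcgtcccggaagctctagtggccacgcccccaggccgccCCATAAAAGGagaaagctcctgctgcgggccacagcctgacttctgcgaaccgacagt
Dusp2: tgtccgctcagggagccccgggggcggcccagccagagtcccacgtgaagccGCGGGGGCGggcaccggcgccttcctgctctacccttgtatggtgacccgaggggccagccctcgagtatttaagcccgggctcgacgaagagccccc

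The next set of immediate-early products limits the response. Dusp1 encodes a phosphatase that switches off MAP kinases, and its RNA was at 10112, 8065 and 10049.5 in Het and 6692, 8196 and 6020.4 in Ko libraries. Only Ko2 reached into the Het range, just above Het2. The log2 fold change was -0.44 ± 0.16 (SE; interval -0.80 to -0.08; limma adjusted p = 0.271). Gadd45b, a stress-induced regulator of MAP kinase signalling, had a fold change of the opposite sign, at 2750.4, 2330.2 and 2831 in Het and 3705, 3279 and 3579.6 in Ko libraries. The groups did not overlap, but the difference was small (0.42 ± 0.17, SE; limma adjusted p = 0.316).

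Dusp2, a MAP kinase phosphatase known best from blood cells, was just below the minimum level for the test, with a mean of 9.79 normalized counts. It had 29, 32 and 12 reads in the Het libraries, against 0, 1 and 1 for Ko. The ratio of normalized rates, Het over Ko, was 24.7, with an exact 95% interval from 6.61 to 208 that covers counting error only. The authors' deposited table gives it a log2 fold change of -4.59 and an adjusted p of 0.0312. Without a minimum level, limma did not call it (adjusted p = 0.451). Summed levels of 14 myeloid and dendritic markers ran from 4966 to 54407 normalized counts in Het and from 1657 to 3186 in Ko libraries, with 0 of the 14 at 0 reads throughout either group. Most of these sums came from 1 gene, Lyz2, encoding lysozyme, at 53300, 3666 and 8729 in Het and 497, 2900 and 1130 in Ko. Without Lyz2 the other 13 overlapped between the groups, at 1107 to 1490.5 and 286 to 1161, and 8 of the 10 tested in the whole list had a negative fold change (median -1.63; 0 called by limma). Sums of 8 B cell markers were 4884 to 6024 in Het and 7548 to 8102 in Ko libraries. Here Cd79b, a B cell receptor component, made the separation: without it the other 7 overlapped, at 2422 to 3551 and 2367 to 2883, and 4 of the 6 tested in the whole list had a negative fold change (median -0.63), while Cd79b rose (log2 fold change 1.12; limma adjusted p = 0.0433, up to 0.171 with a library left out, and 0.0826 by edgeR). DESeq2 called Cd79b (adjusted p = 7.9e-05) and voom did not (adjusted p = 0.0755), and the authors' deposited table gives an adjusted p of 0.00073. Sums of 12 thymocyte markers overlapped, at 151 to 505 and 254 to 415. Their part in the Dusp2 difference was not tested.

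Zfp36, whose product tristetraprolin destroys AU-rich messages, including those of immediate-early genes, was at 13220.0, 7992 and 10788 in Het and 12604, 11155 and 10658 in Ko libraries. Btg2, an antiproliferative gene, ranged from 9794 to 18036 in Het and from 14441 to 17891 in Ko libraries. Ier2 was at 19471, 14803 and 14672 in Het and 21688, 19630.1 and 18247 in Ko libraries, with Het1 inside the Ko range (log2 fold change 0.29, interval -0.02 to 0.60). Ier3, an inhibitor of apoptosis, ranged from 1420.0 to 3569.7 in Het and from 2472 to 3638 in Ko libraries. In none of these 4 genes were the groups apart.

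The Krüppel-like factors and Myc overlapped as well. Klf4, which restrains epithelial growth, was at 6040.4, 3375 and 4637 in Het libraries and at 4098, 4097 and 4022 in Ko libraries, so that the Ko libraries were nearly equal while Het libraries spread to both sides. Klf6 ranged from 3103 to 5121 in Het and from 3196 to 5741 in Ko libraries, with a log2 fold change of -0.02 (interval -0.59 to 0.55). Klf2, known from endothelium and resting lymphocytes, was much less read, at 328 to 423 in Het and 321 to 614 in Ko libraries. Myc, the growth regulator, was at 338 to 588 in Het and 347 to 628 in Ko libraries.

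**Figure D2:**
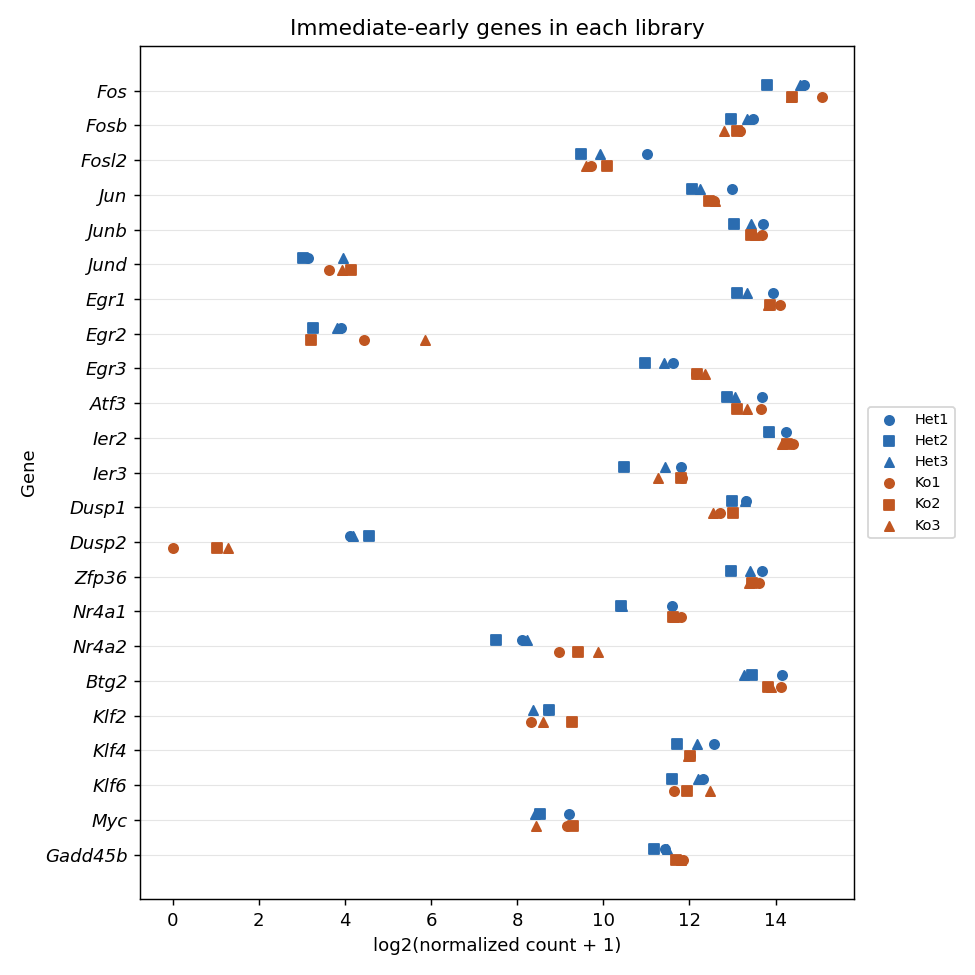
Log2(normalized count + 1) (x axis) of the 23 immediate-early genes (y axis) in each of the 6 libraries; blue points are Het and orange points Ko, with a marker shape for each column number. Ko points of Egr3 and Nr4a2 lie to the right of all Het points, those of Dusp2 to the left, and Het2 is the leftmost blue point for 18 of the 22 tested genes.

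Relative to gene length, RNA of several immediate-early genes was among the most abundant in these cells. Per kb of exon (GENCODE vM21), Ier2 stood at 10720 normalized counts in Het and 13045 in Ko libraries, and Fos 9145 and 10861, which placed both above 99.3% of tested genes in either group. They were followed in Het libraries by Junb (4778), Btg2 (4746), Atf3 (4515) and Zfp36 (3074). Ier2 and Fos led in both groups, while Junb and Btg2, close neighbours, changed places. At the bottom of the order were Jund, Egr2 and Dusp2, each under 10 per kb. Together the 23 genes made up 0.9998%, 0.607% and 0.757% of the reads in the Het libraries, against 1.03%, 0.841% and 0.843% for Ko.

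Libraries of the Het group differed from each other across most immediate-early genes at once. Het2 was the lowest of the 3 Het libraries for 18 of the 22 tested, beside 31.9% of all genes tested, and the lowest of all 6 libraries for 15. Het1 was the highest Het library for 18 of 22, beside 33.9%. The median difference of Het1 over Het2 was 0.68 on the log2 scale, positive for 21 of 22 genes, while over all genes tested it was -0.01. Ko libraries were closer together, with median differences of 0.09 for Ko1 over Ko2, 0.15 for Ko1 over Ko3 and 0.02 for Ko2 over Ko3. As deviations from each gene's mean over the 6 libraries, the medians were 0.28, -0.43 and -0.16 in the Het libraries, against 0.28, 0.07 and 0.05 for Ko. The medians of Het1 and Ko1 were equal to 2 decimals. Single libraries also stood apart in markers of other cells: Het3 in 6 erythroid genes (9830 normalized counts, at most 306 elsewhere) and Ko2 in 9 fibroblast and mural genes (16608, at most 3708 elsewhere). Het1 stood apart in Lyz2, and had the lowest sum of the Het libraries in the other 13 myeloid and dendritic genes. Tuft cell defining markers made up 1.02%, 0.864% and 0.698% of reads in the Het libraries, against 0.962%, 0.951% and 1.06% for Ko. Among Het libraries Het1 was highest in them, as for the immediate-early genes, while Het3 rather than Het2 was lowest. The part of these markers in the order of libraries was not tested. Depth and mitochondrial reads of Het2 lay within the range of the other libraries, with 25210602 reads and 10.1% mitochondrial, against 8.66% to 12.1% in the other libraries.

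**Figure D3:**
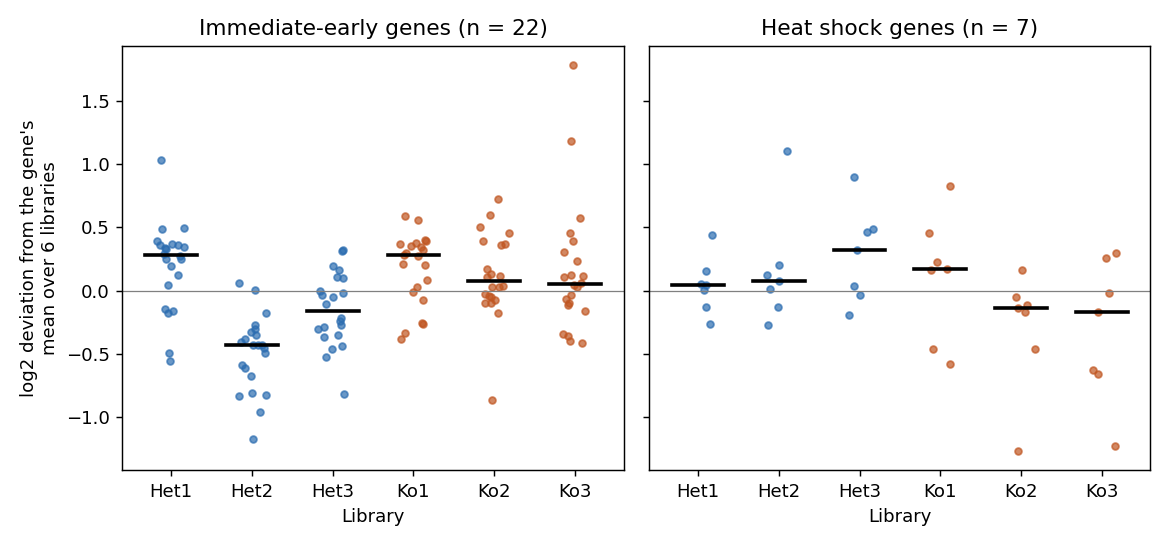
Deviation of each tested gene from its own mean over the 6 libraries (y axis, log2) in each library (x axis), for 22 immediate-early genes on the left and 7 heat shock genes on the right; points are genes, black bars medians, blue Het and orange Ko. The immediate-early genes sit low in Het2 (median -0.43) and high in Het1 and Ko1 (0.28 each), and the heat shock genes do not follow this order.

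Heat shock genes did not share this order of libraries. Het2 was the lowest Het library for 1 of 7, and their median deviations were 0.05, 0.08 and 0.32 in the Het libraries, against 0.17, -0.14 and -0.17 for Ko. The 7 genes took 0.149% to 0.192% of reads in all libraries.

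Hspa1a and Hspa1b encode the stress-inducible HSP70, the classic readout of HSF1. Hspa1a was at 1829, 1424 and 1381 in Het libraries and 2395, 1224 and 574 in Ko libraries. Hspa1b was at 3925, 4143 and 5259 in Het and 5218, 2759.8 and 2459 in Ko libraries. Both were highest in Ko1 among Ko libraries and lowest in Ko3, so that the Ko group spanned more than the Het group. Log2 fold changes were -0.36 (interval -1.33 to 0.61) and -0.42 (-1.03 to 0.18), with limma adjusted p-values of 0.778 and 0.550. Both values turned on single libraries: Hspa1a was at -0.87 without Ko1, -0.24 without Het1 and 0.16 without Ko3, and Hspa1b at -0.76 without Ko1 and -0.22 without Ko3. The 2 genes share sequence: 58.8% of the 50-base words in Hspa1a transcripts occur in Hspa1b, so the split of reads between them is uncertain.

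Hspa8, the constantly expressed HSC70, was at 7526, 7532 and 8041 in Het and 9261, 7298 and 10103 in Ko libraries. Hsp90aa1, the inducible HSP90, ranged from 5888 to 7474 in Het and from 6197 to 7517 in Ko libraries, with a log2 fold change of 0.02 (interval -0.32 to 0.35). Dnajb1, the HSP40 partner of HSP70, was at 5653, 4515 and 7659 in Het and 6390.2, 6120.4 and 3461 in Ko libraries, highest in Het3 and lowest in Ko3. Hspe1, the mitochondrial co-chaperonin HSP10, ranged from 2133 to 3197 and from 1856 to 3065. The groups overlapped in all 4.

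Hsph1, encoding HSP110, which exchanges nucleotide on HSP70, was the heat shock gene that differed most. It was at 848, 1819.7 and 1576 in the Het libraries, against 565, 349 and 752 for Ko. Every Ko value lay below every Het value, though Ko3 and Het1 were close; 9.86% of all genes tested had such an order. The means were 1414 ± 506 and 555 ± 202 (SD, n = 3 each), and the log2 fold change was -1.34 ± 0.38 (SE; interval -2.19 to -0.50; limma adjusted p = 0.151). DESeq2 called it (adjusted p = 0.0148), edgeR did not (0.203), and the authors' deposited table gives an adjusted p of 0.0282. Leaving out single libraries moved the log2 fold change between -1.68 and -1.04.

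**Figure D4:**
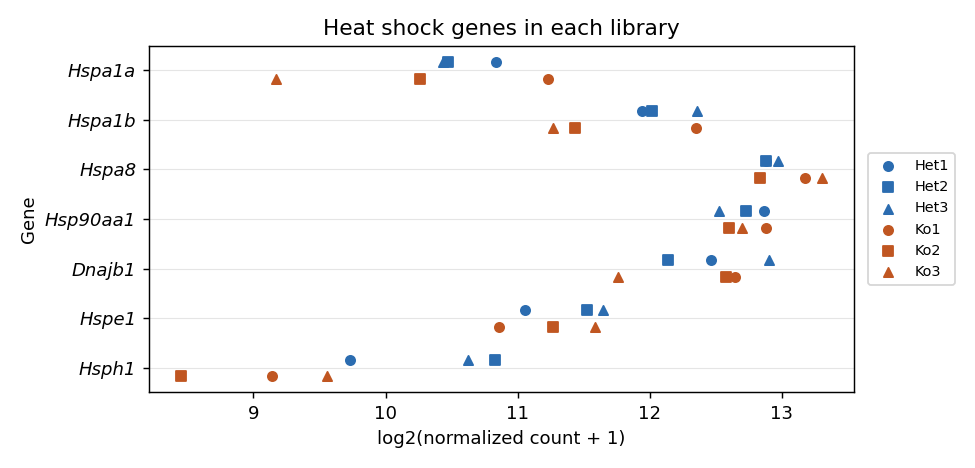
Log2(normalized count + 1) (x axis) of the 7 heat shock genes (y axis) in each library; blue points are Het and orange points Ko, with a marker shape for each column number. Hsph1 is the gene with all Ko points to the left of all Het points, and Hspa1a has the widest Ko range, from 574 to 2395 normalized counts.

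Promoters of heat shock genes are shown because HSF1 binds inverted repeats of GAA in them. The pairs searched were GAANNTTC and TTCNNGAA, which can overlap each other in longer elements. At least 1 pair was found for 4 of the 5 heat shock genes matched, Hspa1a, Hspa1b, Hspe1 and Hsph1, for 3 of 19 immediate-early genes and in 15.1% of all windows. Capitals mark the pairs in the 150 bases before Hspa1a, chr17:34972157-34972306 (minus strand), and Hspa1b, chr17:34959239-34959388 (minus strand), which are identical at 149 of 150 positions, and in the 120 bases before Hspe1, chr1:55088028-55088147 (plus strand), and Hsph1, chr5:149636337-149636456 (minus strand). Hspe1 had 3 overlapping pairs. All 4 had a negative log2 fold change, none of them called by limma, and so had Dnajb1, the matched gene without a pair (-0.18). Of the immediate-early genes with a pair, Fosl2 was at -0.33, Jun at 0.12 and Egr2 at 0.85. Over all genes tested, 47.2% were positive. The groups lay apart for Hsph1 and overlapped for Hspa1a, Hspa1b and Hspe1. A tie between the pairs and the fold changes was not tested.
Hspa1a: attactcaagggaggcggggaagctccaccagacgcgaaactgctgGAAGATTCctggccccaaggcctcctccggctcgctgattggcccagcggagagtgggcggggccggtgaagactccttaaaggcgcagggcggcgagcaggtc
Hspa1b: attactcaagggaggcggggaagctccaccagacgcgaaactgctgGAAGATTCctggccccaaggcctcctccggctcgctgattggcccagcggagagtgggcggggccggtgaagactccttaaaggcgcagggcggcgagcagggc
Hspe1: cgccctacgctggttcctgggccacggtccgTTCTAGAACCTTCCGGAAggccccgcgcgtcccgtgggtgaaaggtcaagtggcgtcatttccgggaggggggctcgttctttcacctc
Hsph1: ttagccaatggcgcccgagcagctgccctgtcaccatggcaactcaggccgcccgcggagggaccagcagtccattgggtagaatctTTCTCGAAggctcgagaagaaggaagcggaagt

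Other genes of the same pathways, in lists drawn up with earlier results of these data known, gave 0 calls by limma in 10 lists with 178 tested genes. At an unadjusted limma p under 0.05 there were 18 on the higher side (10.1%, beside 5.62% of all genes) and 15 on the lower (8.43%, beside 7.99%). EdgeR and voom called 0, and DESeq2 called 8 as higher and 3 as lower, which is 6.18% of the 178 and near its 6.34% over all genes. The lower calls by DESeq2 were Nfkbia, Braf and Dnaja2, and the higher ones included Socs3, Cebpd, Nfil3, Cryab and Mt1. In the list of other early response genes, 24 of 38 tested had a positive fold change (median 0.08). Socs3, a feedback inhibitor of cytokine signalling, was at 1419.9, 701 and 779 in Het and 2468, 2481 and 2448 in Ko libraries, with nearly no spread among Ko libraries and a log2 fold change of 1.42 ± 0.28 (SE) just short of the threshold (limma adjusted p = 0.0513). Nfkbia, the inhibitor of NF-kB, was at 27349, 27865 and 26655 in Het and 19672, 15679 and 18782 in Ko libraries, without overlap (log2 fold change -0.60 ± 0.12, SE; limma adjusted p = 0.0504). Without Het1, Socs3 passed limma (adjusted p = 0.0194), and with any other library left out it did not (0.113 to 0.221). DESeq2 gave adjusted p-values of 0.000483 for Socs3 and 0.00422 for Nfkbia, and the authors' deposited table gives 0.00218 and 0.00661. The median deviations of this list were 0.18, -0.24 and 0.01 in Het1, Het2 and Het3, with Het2 lowest as for the members.

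Among AP-1 and related bZIP partners (16 tested, median 0.05), Cebpd was at 2427 ± 740 in Het against 4328 ± 65.1 in Ko libraries (limma adjusted p = 0.133) and Nfil3 at 357 ± 29.5 and 817 ± 229 (0.144; SD, n = 3 each). Genes upstream of the response, MAP kinases and ternary complex factors, leaned to the Het side, with 16 of 22 negative (median -0.18). Of these, Braf, encoding a kinase above ERK, was at 1220 ± 140 and 613 ± 115 (limma adjusted p = 0.128), and Map3k8 at 930 ± 253 and 448 ± 54.6 (0.188). Other dual specificity phosphatases had fold changes of both signs (10 tested, median 0.10): Dusp22 was at 1307 ± 362 and 634 ± 268 (limma adjusted p = 0.229) and Dusp5 at 1412 ± 479 and 2332 ± 212 (0.239).

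The heat shock factor genes Hsf1 and Hsf2 overlapped between the groups, Hsf1 at 695 ± 158 in Het against 592 ± 170 in Ko libraries (limma adjusted p = 0.808) and Hsf2 at 754 ± 282 and 664 ± 132 (0.900; SD, n = 3 each). Among other HSP70, HSP110 and HSP40 genes (23 tested, median 0.00), Dnaja2 was at 3363 ± 378 and 1927 ± 244 (limma adjusted p = 0.0956) and Dnaja4 at 317 ± 93.8 and 102 ± 91.2 (0.337). Among HSP90, chaperonin and small heat shock genes (19 tested, median 0.01), Cryab, a small chaperone, was at 1819 ± 315 and 3207 ± 523 (limma adjusted p = 0.116) and the collagen chaperone gene Serpinh1 at 136 ± 59.3 and 302 ± 80.7 (0.365). Co-chaperones (21 tested) had a median of 0.00, with Bag2 at 233 ± 146 and 60.8 ± 48.0 (limma adjusted p = 0.309) and Fkbp5 at 431 ± 156 and 724 ± 96.3 (0.342).

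Genes of stress programs beside heat shock did not pass limma either. In the unfolded protein and integrated stress response (16 tested, median -0.04), Edem1 was at 727 ± 219 and 299 ± 158 (limma adjusted p = 0.244) and Herpud1 at 4305 ± 624 and 3178 ± 393 (0.326; SD, n = 3 each). In the oxidative stress and metallothionein list (10 tested, median -0.07), Mt1, a metal-binding stress protein gene, was at 7324, 7732 and 8429 in Het and 11579, 15074 and 12012 in Ko libraries. These groups lay apart, with a log2 fold change of 0.71 ± 0.14 (SE; limma adjusted p = 0.0567). DESeq2 called Mt1 (adjusted p = 0.00109), and the authors' deposited table gives an adjusted p of 0.00436. Srxn1 was at 534 ± 280 and 169 ± 190 (limma adjusted p = 0.313).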

How the data were processed

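Tuft cells were sorted on L1CAM directly into a SMART-seq lysis buffer, according to the labels' protocols, giving 3 samples of each genotype. The submitters' processing notes list STAR 2.7.9a, DESeq2 (no version) and GRCm39. The counter, the annotation and whether counting used strand: not given in the sources used here. As deposited, the expression table is a signal: every value above 0 was a whole multiple of 1 read, within 0.01 reads, for 100% of values, with 1 multiplier for each library. Per the file headers, the authors' comparison table gives for each gene a log2 fold change and its error, a test statistic (a score), and a p-value before and after adjustment.

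Columns were tied to genotypes, Ko by name and Het by elimination, and not to single samples. Symbols were found for 55144 of 55471 identifiers. The limit set by 3 reads was 1.68 to 4.33 normalized counts, depending on the library. The test was limma 3.58.1 (R 4.3.3; trend, two-sided, Benjamini-Hochberg at 0.05) with genotype as the only term and a pseudocount of 1, so fold changes of low genes are understated. The script was tested on simulated data, with changes put into genes with a mean of at least 50. It called 15 of 300 genes with a 2-fold change (5%) and 147 of 300 with a 4-fold change (49%). Most 2-fold changes among such genes would therefore be missed with 3 libraries in each group. The share for genes read as highly as most members was not simulated apart. The Dusp2 interval is an exact binomial one.

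All 30 members are named, and from each pathway list any gene called and the 2 with the smallest p. Members and lists were chosen with earlier results of these data known. Alternatives were pseudocounts of 0.5 and 5, no minimum level or a mean of at least 50, TMM and equal-total scaling, edgeR 4.0.16, DESeq2 1.42.0 and voom on recovered reads, a block by column number, and leaving out each library. Lengths, overlaps and shared words came from GENCODE vM21 and promoters from RefSeq, both on GRCm38, so they approximate the authors' gene models. In vM21, exons of Jun, Junb, Jund, Dusp1, Zfp36, Hspa1a and Hspe1 overlap a gene on the opposite strand, whose reads cannot be told apart unless counting used strand.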

Additional observations from a re-analysis of the deposited data

How the results depend on the processing

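Counts of called members stayed at 0 for the 22 immediate-early and 7 heat shock genes under all alternatives except DESeq2, with 2 and 1 calls, and leaving out Het1, where the immediate-early count was 1 (range over left-out libraries 0 to 1). Over all genes, limma called 158, edgeR 75, voom 40, DESeq2 1118 and the replicate block by column number 87; leaving out single libraries gave 0 to 116, the 0 being without Het3 and 14 without Het2. Sample numbers in the labels all differ, and each Cre-negative number is followed directly by a Cre-positive one. The labels do not say whether such neighbours were matched. Columns are not tied to single samples, so a pairing by sample number could not be tested. Same-numbered columns did not deviate together (r across genes 0.02, 0.02 and -0.02), so the block by column number was not used in the main test. That block changed no member's call. The heat shock median ranged from -0.36 to 0.030 over left-out libraries and the immediate-early median from 0.09 to 0.42. Of 29 tested members, 16 kept the sign of their log2 fold change in all alternatives run. Klf6 changed sign with TMM scaling (5.1e-05), equal totals (0.0057) and edgeR (0.0048), and Hsp90aa1 with voom (-0.0028). With single libraries left out, log2 fold changes that changed sign ranged from -0.016 to 0.42 for Fos, -0.66 to 0.11 for Fosl2, -0.067 to 0.40 for Jun, -0.033 to 0.30 for Junb, -0.0098 to 0.39 for Atf3, -0.062 to 0.30 for Zfp36, -0.13 to 0.33 for Klf2, -0.38 to 0.042 for Klf4, -0.25 to 0.17 for Klf6, -0.87 to 0.16 for Hspa1a, -0.075 to 0.097 for Hsp90aa1, -0.36 to 0.11 for Dnajb1 and -0.35 to 0.016 for Hspe1. The causes were not tested. Few reads limit what can be said of Jund, Egr2 and Dusp2, with 71, 114 and 75 in all. Why they had few was not tested.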
